A study of Mus musculus with 6 samples.

Results

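The 10 genes described here encode the 4 Notch receptors (Notch1, Notch2, Notch3 and Notch4), 4 of their ligands (Jag1, Jag2, Dll1 and Dll4) and 2 transcription factors that Notch switches on (Hes1 and Hey1). They were taken by symbol, and all 10 were measured among 12393 genes. Together they had 17 probe sets, the groups of short DNA probes that report 1 transcript. Each gene is represented by its brightest probe set over the 6 arrays, and the second one is given beside it where there is one.

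The series compared 3 samples of 344SQ cells that overexpressed the microRNA miR-34a from an inducible construct with 3 samples of 344SQ cells carrying the control vector. 344SQ is a metastatic mouse lung cancer line that the labels describe as high in Zeb1 and as KP, and both groups share that background. Both groups are made from this 1 line, and the labels give no inducer, dose, time, mouse strain or age. The labels do not settle whether the RNA came from tumours or from culture. The design text names primary tumours of injected mice, as do the miR-34a titles, whereas the sample descriptions and growth protocol name cells. On every array the fibroblast markers given below summed to at least 15537 intensity units and the macrophage markers to at least 17713. The origin of the RNA was not tested.

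Notch is a receptor that works by being cut. A ligand on a neighbouring cell pulls on it, the protease ADAM10 and then gamma-secretase cleave it, and the freed intracellular part enters the nucleus, where it joins RBPJ and a Mastermind protein to activate genes such as Hes1 and Hey1. In blood vessels Dll4 and Notch4 are known from endothelium and Notch3 from pericytes and smooth muscle, and in epithelia the pathway steers cell fate. Mature miR-34a binds messenger RNAs through its seed, bases 2 to 8, and Notch1, Notch2, Jag1 and Dll1 have been published as its targets.

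The mature sequence is shown because it defines what was overexpressed, with microRNAs that share its seed. Among 1738 mature mouse microRNAs taken from RefSeq (GRCm38.p6), 4 carried the seed GGCAGUG, given in capitals. They came from chromosome 4 (miR-34a, plus strand, chr4:150068473-150068494), chromosome 9 (miR-34b) and chromosome 13 (miR-449a and miR-449c). That set may lack some mouse microRNAs, so these 4 need not be the whole seed family. No mature microRNA was measured on these arrays, and matches to the seed in the members' 3' ends were not analysed here.
mmu-miR-34a-5p: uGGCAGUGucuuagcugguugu
mmu-miR-34b-5p: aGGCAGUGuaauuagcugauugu
mmu-miR-449a-5p: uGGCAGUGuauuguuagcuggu
mmu-miR-449c-5p: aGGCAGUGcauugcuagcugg
Outside the capitals the 4 sequences differ.

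The deposited array medians ran from 466.7 to 484.2 intensity units. In a principal component analysis, the leading axis (61.0% of the variance) had the miR-34a arrays between 16.25 and 21.66, vector 2 and vector 3 at -5.42 and -8.75, and vector 1 apart at -43.33. For several members and other genes the value without vector 1 is given as well. Since no label states that replicates were separate cultures or mice, the p-values cover the scatter of these arrays, whatever its source. The epithelial keratin genes Krt8, Krt18 and Krt19 had log2 values from 13.51 to 14.61 over all arrays. The rest of the epithelial list is named here, with the lung genes, after its values were seen. Cdh1 ran from 13.58 to 13.76 and Krt7 from 13.56 to 13.82. Epcam, Cldn4 and Esrp1 were lower, from 8.33 to 10.53, from 8.25 to 8.83 and from 7.37 to 7.57. The 8.33 of Epcam was on vector 1, and its other arrays ran from 9.92 to 10.53. Of the lung lineage genes Sftpb was the brightest, at 9.09 on vector 1 and from 13.16 to 13.88 on the other arrays. Foxa2 ran from 11.57 to 12.33 and Sftpd from 9.82 to 10.03. Lower were Nkx2-1 from 8.05 to 8.51, Sftpc from 7.90 to 8.33 and Napsa from 7.92 to 8.28.

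In miR-34a samples the ligand gene Dll1 fell, and it was the member that passed the test. The ligand gene Jag1 had lower means on both of its probe sets and the receptor genes Notch1 and Notch2 had higher means on their brightest probe sets, and none of these passed. The target genes Hes1 and Hey1 had nearly the same mean in both groups. Of the 10 genes, 1 (10%) had an adjusted p under 0.05 in limma, against 11.7% of all genes tested. Counting falls alone it was 1 of 10, against 5.25% of all genes, and counting rises it was 0 of 10, against 6.5%. The groups did not overlap in 3 of 10 members, against 34.9% of all genes. In 2 of them the miR-34a arrays were above (20.8% of all genes) and in 1 below (14%), and 4 members had an unadjusted p under 0.05, against 28.2% of all genes. The median change of the 10 members was -0.06 in log2 units, and that of all genes was 0.02. At 3 arrays per group these shares lay near those of all genes.

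**Figure D1:**
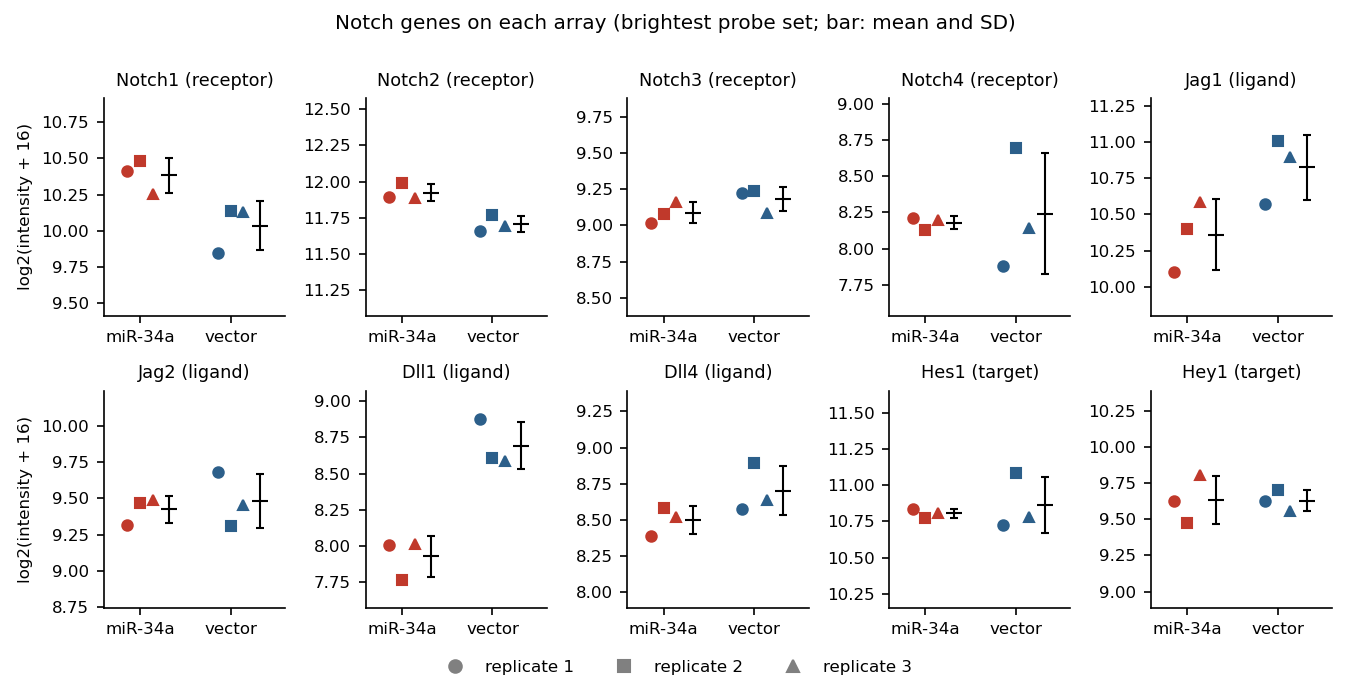
Level of each Notch gene on each array as log2(intensity + 16), from its brightest probe set, with miR-34a arrays in red on the left and vector arrays in blue on the right of each panel; markers give the replicate number and black bars the mean and SD (n = 3 each). All panels span the same log2 range; Dll1 shows the widest gap between the groups, with means of 7.93 and 8.69, while Hes1 and Hey1 overlap.

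Dll1 encodes Delta-like 1, a ligand that activates Notch on adjacent cells. Its intensity was 241, 202 and 242 units on the miR-34a arrays, against 455, 374 and 368 units on the vector arrays. All miR-34a arrays were below all vector arrays, and vector 1 was the highest. In log2 units it averaged 7.93 ± 0.141 in miR-34a and 8.69 ± 0.163 in vector samples (SD, n = 3 each). The change was -0.76 ± 0.116 (SE), a 1.70-fold fall, with a 95% interval from -1.04 to -0.49 (limma adjusted p = 0.0116). By unadjusted p it ranked 315 of 12393 genes. Among the 651 genes that were lower and passed the test it was at place 166 by size of change. Over the alternatives tried its change ran from -0.82 to -0.66. Without vector 1 it was -0.67 and passed, while without miR-34a 1 (-0.80, adjusted p = 0.0549) or miR-34a 3 (-0.80, adjusted p = 0.0532) it did not pass. Dll1 had 1 probe set, so no second one bears on this value.

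Jag1 encodes Jagged1, a ligand of the second, Serrate-like family. Its brightest probe set read 1081, 1333 and 1520.1 units in miR-34a samples, against 1506, 2037 and 1893 units in vector samples. The groups overlapped there, because miR-34a 3 lay just above vector 1. The change was -0.46 ± 0.16 (SE; limma adjusted p = 0.109), with a 95% interval from -0.84 to -0.09. The second probe set read 355, 439 and 472 units in miR-34a samples, against 539, 589 and 597 units in vector samples, with no overlap. It changed by -0.44 ± 0.119 (SE; limma adjusted p over all probe sets = 0.0506). Both probe sets gave a similar change, and neither passed. Without vector 1 the brightest probe set changed by -0.59 and passed (adjusted p = 0.0265), and with array weights it changed by -0.52 and passed (adjusted p = 0.0247).

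The remaining ligand genes did not pass. Jag2, a ligand implicated in metastasis of mouse lung adenocarcinoma, read 621, 691 and 702 units in miR-34a samples, against 804, 618 and 685 units in vector samples. The groups overlapped, with vector 1 the highest array and vector 2 the lowest vector array (log2 change -0.06 ± 0.114, SE; limma adjusted p = 0.794). Without vector 1 the sign turned, at 0.04. Its dimmer probe set read 171, 221 and 196 units in miR-34a samples, against 226, 279 and 280 units in vector samples, without overlap. That probe set changed by -0.39 ± 0.125 (SE; limma adjusted p over all probe sets = 0.0853). Dll4, the Delta ligand of vessel sprouting, read 320.1, 367 and 351 units in miR-34a samples, against 365, 460 and 383 units in vector samples. The change was -0.20 ± 0.109 (SE; limma adjusted p = 0.276), and -0.36 ± 0.154 on the second probe set. All 7 probe sets of the 4 ligand genes had a mean lower in miR-34a samples, as had 49.3% of all probe sets, and 1 of them passed, against 13.7% of all probe sets. A test of the ligands as a group was not made.

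Notch1, the receptor studied most in epithelial and T cell cancers, read 1347, 1417 and 1204 units in miR-34a samples, against 904, 1110.2 and 1103 units in vector samples. All miR-34a arrays lay above all vector arrays, and vector 1 was the lowest. The change was 0.35 ± 0.113 (SE; limma adjusted p = 0.0939), a 1.27-fold difference with a 95% interval from 0.08 to 0.61. The second probe set changed by 0.27 ± 0.0903, again without overlap. Without vector 1 the change of the brightest probe set was 0.25, and over all alternatives it ran from 0.25 to 0.41 and passed in 0 of 15.

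Notch2, a receptor with broad expression in epithelia and stroma, read 3789, 4046 and 3777 units in miR-34a samples, against 3221, 3480.0 and 3297 units in vector samples. The groups did not overlap, and the spread within each was small. The change was 0.22 ± 0.0776 (SE; limma adjusted p = 0.122), a 1.16-fold difference. The second Notch2 probe set was dim, at 134 to 163 units in miR-34a and 138 to 179 units in vector samples, and changed by -0.07. With the mean of both probe sets the change was 0.07. Of the genes published as targets of miR-34a, Notch1 and Notch2 thus had a higher mean in miR-34a samples, and Jag1 and Dll1 a lower one.

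Notch3 read 502, 525 and 558 units in miR-34a samples, against 581, 587 and 527 units in vector samples (log2 change -0.09 ± 0.0845, SE; limma adjusted p = 0.523). Its second probe set changed by 0.10. Notch4 read 281, 263 and 277 units in miR-34a samples, against 219, 399 and 267 units in vector samples (-0.06 ± 0.194, SE; limma adjusted p = 0.872). The miR-34a arrays lay together, between the low vector 1 and the high vector 2, and the sign turned without vector 2, at 0.17, while without vector 1 the change was -0.24. The second Notch4 probe set changed by 0.16, with vector 1 the highest array of all. In 3 of the 7 members with several probe sets (42.9%) these had opposite signs, and in 42.9% of all 4956 such genes.

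**Figure D2:**
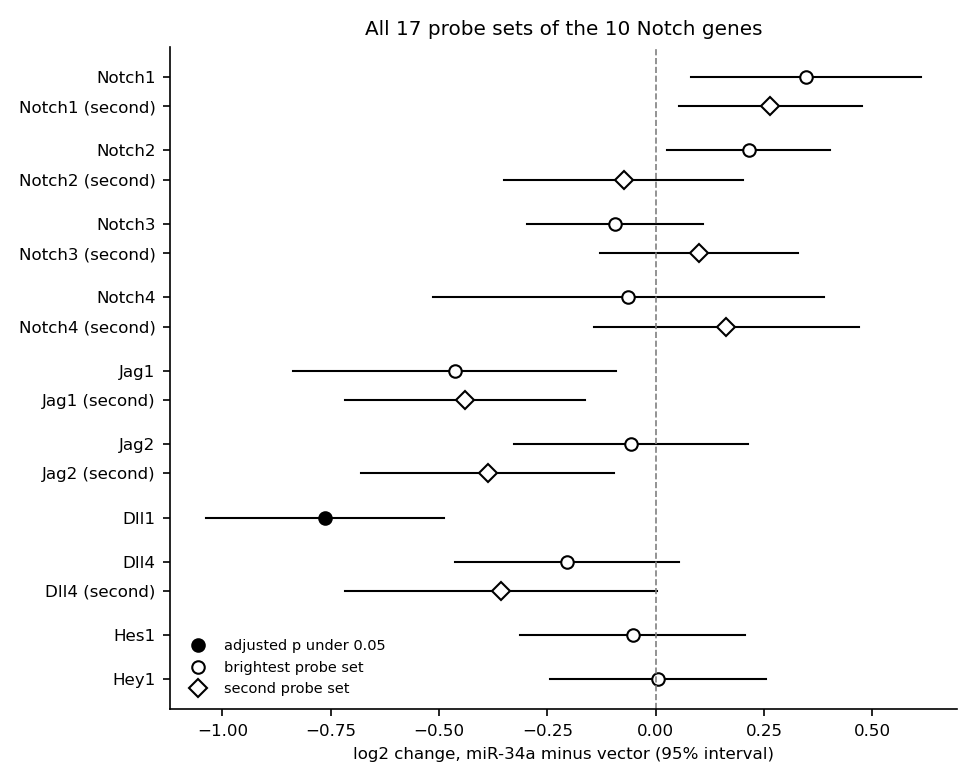
Log2 change (miR-34a minus vector) of all 17 probe sets of the 10 Notch genes, with 95% intervals from limma; circles are the brightest probe set of a gene, diamonds the second, and filled symbols have an adjusted p under 0.05. Dll1 is filled at -0.76; both Jag1 probe sets lie near -0.45 and both Notch1 probe sets above 0, while those of Notch2, Notch3 and Notch4 fall on both sides of 0.

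Over single probe sets, 1 of 17 passed, against 13.7% of all 20380, and in 6 of 17 the groups did not overlap, against 35.5%. The 6 were both of Notch1, the bright one of Notch2, the dimmer ones of Jag1 and Jag2, and that of Dll1.

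Hes1 encodes a transcriptional repressor that is a widely used readout of Notch activity. It read 1812, 1735 and 1781 units in miR-34a samples, against 1675, 2150.5 and 1738 units in vector samples. The miR-34a values were tight and lay inside the vector range, in which vector 2 was high. The change was -0.05 ± 0.11 (SE; limma adjusted p = 0.797), with a 95% interval from -0.31 to 0.21. It was -0.12 without vector 1 and 0.06 without vector 2. Hey1, a related repressor, read 773, 694 and 878 units in miR-34a samples, against 775, 818 and 736 units in vector samples. Here the miR-34a arrays spread wider than the vector arrays, and the change was 0.00 ± 0.105 (SE; limma adjusted p = 0.985), with an interval from -0.24 to 0.25. Shifts of Hes1 or Hey1 inside these intervals were not resolved by 3 arrays per group.

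**Figure D3:**
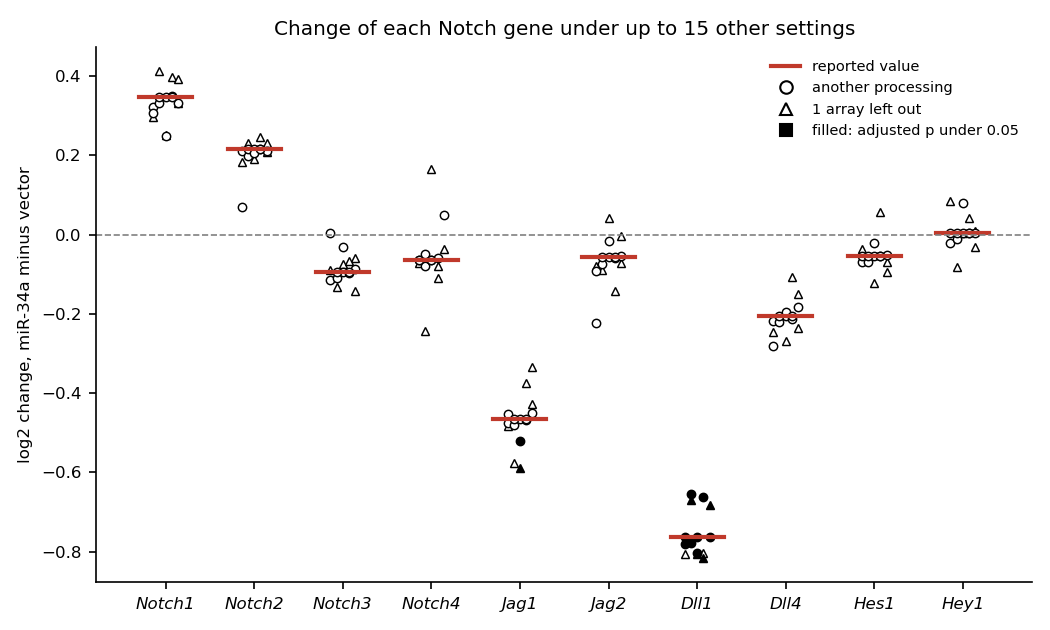
Log2 change (miR-34a minus vector) of each Notch gene as reported (red line) and under up to 15 other settings, with circles for another processing, triangles for fits with 1 array left out, and filled symbols for an adjusted p under 0.05. Dll1 stays between -0.82 and -0.66 and Jag1 between -0.59 and -0.33, whereas Notch3, Notch4, Jag2, Hes1 and Hey1 have values on both sides of 0.

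By pattern over the 6 arrays, each gene centred on its own mean, the genes least different from Dll1 were Aifm1, Pclaf and Ndufa5, with root mean square differences of 0.069, 0.0772 and 0.0826 in log2 units. For Jag1 they were Gkap1, Cldn2 and Zfp638 at 0.0894, 0.0922 and 0.121. For Notch1 they were Synj2bp, Sar1a and Col4a1 at 0.0325, 0.0326 and 0.037, and for Notch2 Cct3, Lamp1 and Lsm14b at 0.0148, 0.0159 and 0.0212. The single nearest gene was Eps15l1 for Notch3 (0.0211), Ms4a6d for Notch4 (0.0878), Ddx47 for Jag2 (0.0306), Rsrc1 for Dll4 (0.0375), Ermp1 for Hes1 (0.0375) and Arsi for Hey1 (0.0372). The search covered about 6196 genes from the upper part by level, and the points share the 6 arrays.

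Other genes of the pathway were taken from a list of 63, of which 54 were measured. Of these 1 rose and 1 fell (3.7%, against 11.7% of all genes), 18.5% had an unadjusted p under 0.05 (against 28.2%), and in 29.6% the groups did not overlap (against 34.9%). Their median change was 0.06, against 0.02 for all genes. None of the 4 other ligand-like genes, 5 sugar transferase genes, 7 receptor cleavage genes, 3 ligand ubiquitin ligase genes, 7 nuclear activator genes or 10 other target genes passed in limma, and 4 of these 36 had an unadjusted p under 0.05. Without vector 1, where 2133 of all 12393 genes passed, 5 of the 36 passed in limma, among them Lfng and Adam17 (below). The others were Psen2 (0.38, adjusted p = 0.0239), Sox9 (-0.32, adjusted p = 0.0499) and Snai2 (-0.39, adjusted p = 0.0446). Psen2, Sox9 and Snai2 were named after their values were seen. Array weights gave 5 calls, averaging the probe sets of a gene 2, and leaving out vector 2 gave 1. In those settings 3238, 1476 and 1256 of all 12393 genes passed.

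The gene that fell was Hdac2, a histone deacetylase found in repressor complexes. Its log2 values were 10.13, 10.34 and 9.99 in miR-34a samples, against 10.73, 11.12 and 10.94 in vector samples. The groups did not overlap, and the change was -0.78 ± 0.134 (SE; limma adjusted p = 0.0165). It did not pass without miR-34a 1, miR-34a 3 or vector 3 (adjusted p = 0.0752, 0.0787 and 0.0541). The gene that rose was Numbl, which encodes a relative of the endocytic Notch inhibitor Numb. Its log2 values were 9.39, 9.16 and 9.33 in miR-34a samples, against 8.70, 8.95 and 8.83 in vector samples, and they changed by 0.47 ± 0.102 (SE; limma adjusted p = 0.0304). It did not pass without miR-34a 1, miR-34a 3 or vector 3 (adjusted p = 0.117, 0.123 and 0.0865), or with the replicate number as a block (adjusted p = 0.0935). Numb itself had a change of 0.42 ± 0.115 (adjusted p = 0.0596) and a second probe set at -0.15. Fbxw7, the substrate receptor of a ubiquitin ligase that degrades cleaved Notch, had a change of 0.54 ± 0.146 (adjusted p = 0.0579) and a second probe set at -0.09, and was named after its value was seen.

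Lfng encodes Lunatic fringe, a sugar transferase that alters which ligands Notch answers to. Its log2 values were 9.70, 9.40 and 9.66 in miR-34a samples, against 7.17, 8.97 and 8.39 in vector samples. The groups did not overlap, vector 1 was far below the rest, and the change of 1.41 ± 0.41 did not pass (SE; limma adjusted p = 0.0699). Without vector 1 it was 0.91 and passed (adjusted p = 0.0123), and without vector 2 it was 1.80 and passed (adjusted p = 0.0318). The second Lfng probe set changed by -0.01, and with the mean of both the change was 0.70. Vector 1 was likewise low in the surfactant gene Sftpb, at 9.09 against 13.16 and 13.38 on the other vector arrays.

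The receptor proteases depended on the probe set. The brightest probe set of Adam10 changed by -0.13 ± 0.0818 (SE; limma adjusted p = 0.349), while its other probe sets changed by -0.89 ± 0.117 and -1.10 ± 0.147 and both passed over all probe sets (adjusted p = 0.00581 and 0.00619). The dimmer of these read 8.84, 8.75 and 8.85 in log2 units in miR-34a samples, against 10.13, 9.57 and 10.04 in vector samples. Adam17, a related protease, changed by -0.29 ± 0.126 on its brightest probe set (adjusted p = 0.192). Without vector 1 this was -0.39 and passed (adjusted p = 0.0433). The others changed by -0.39 ± 0.126 and -0.74 ± 0.1, and the last passed over all probe sets (adjusted p = 0.00626). With the mean of all probe sets both genes passed, Adam10 at -0.71 (adjusted p = 0.00903) and Adam17 at -0.47 (adjusted p = 0.0223). Which probe sets of a gene measure which transcript end is not given in the files.

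The nuclear partners did not pass, with Rbpj at 0.06 ± 0.116 and Maml1 at 0.21 ± 0.117 (SE; limma adjusted p = 0.781 and 0.294). Without vector 1 these were -0.05 and 0.13. The second probe sets of Rbpj and Maml1 changed by -0.06 and 0.135, and that of Maml1 had no overlap between the groups. Among other targets Hes5 had 0.04 ± 0.163 and Heyl 0.16 ± 0.134 (adjusted p = 0.904 and 0.494), and 0.22 and 0.04 without vector 1. The second Hes5 probe set changed by -0.23. The other Heyl probe sets changed by 0.28, without overlap, and by 0.12. None of these further probe sets of Rbpj, Maml1, Hes5 or Heyl passed over all probe sets. Nrarp, a target that feeds back to block Notch, had -0.09 ± 0.101 on its brightest probe set (adjusted p = 0.596). Its second probe set read 8.90, 8.99 and 8.97 in log2 units in miR-34a samples, against 9.30, 9.64 and 9.50 in vector samples. That probe set fell by 0.53 on the log2 scale and passed over all probe sets (adjusted p = 0.0196).

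**Figure D4:**
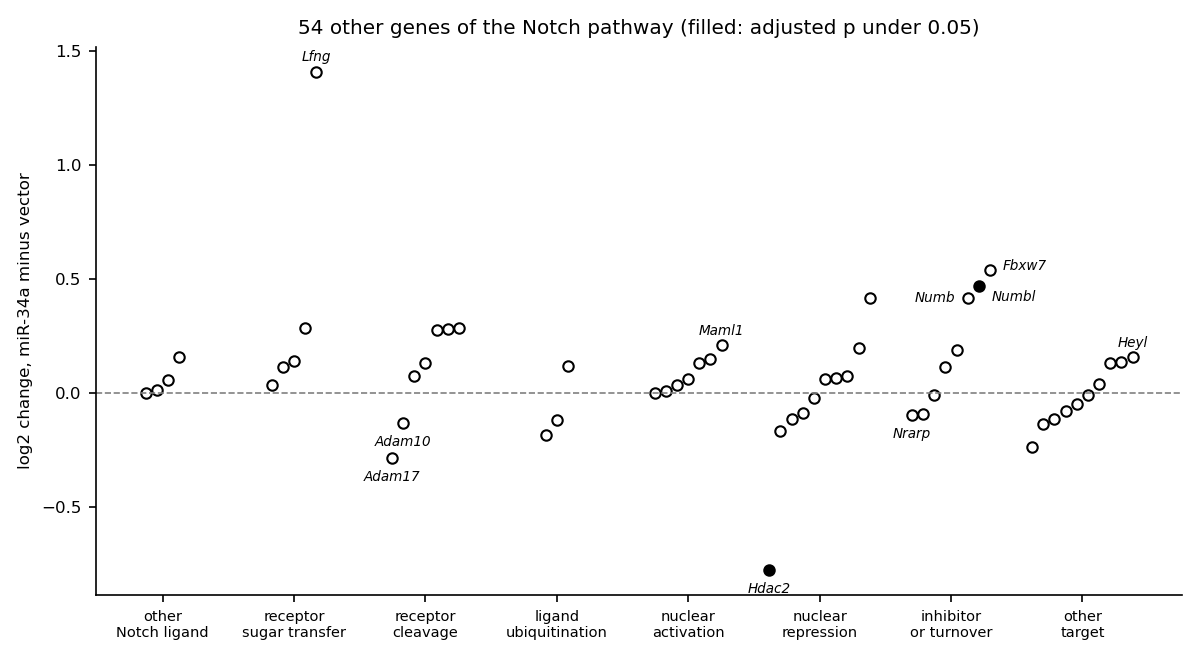
Log2 change (miR-34a minus vector) of the 54 other measured genes of the Notch pathway, each at its brightest probe set and grouped by role along the horizontal axis; filled circles have an adjusted p under 0.05. Hdac2 at -0.78 and Numbl at 0.47 are filled, and Lfng is highest at 1.41 without passing.

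The DNA word TGGGAA, the core bound by RBPJ, was searched on both strands of RefSeq promoter windows of GRCm38.p6. It was present in 25.6% of 32851 windows. Counted by gene, it was in 0 of the 8 members with a window (Hes1 and Hey1 had none) and in 18 of 49 other pathway genes with one. Those 49 came from all 63 listed genes, measured or not. A gene can have several windows, so the share of windows and the counts of genes are unlike measures. The word is shown for Hes5, a target at 0.04 above, and for Lfng, at 1.41 above. Each had 2 matches that do not overlap (capitals, with TTCCCA the same word read on the other strand). The stretches lie on the plus strand upstream of the start site, at chr4:154960691-154960852 and chr5:140607200-140607244, and are a description of the letters only.
Hes5: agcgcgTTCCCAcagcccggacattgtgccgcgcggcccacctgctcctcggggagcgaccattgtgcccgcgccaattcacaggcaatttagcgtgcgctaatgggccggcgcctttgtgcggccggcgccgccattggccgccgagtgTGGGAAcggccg
Lfng: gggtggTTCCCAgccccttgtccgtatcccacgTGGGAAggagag
In the Hes5 stretch the matches stand far apart, and in the Lfng stretch close together.

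Notch genes differ between cell types, so markers of other cells are given beside them. Over all the lists 12.8% of 78 measured markers passed in limma, against 11.7% of all genes. An unadjusted p under 0.05 was found for 28.2% of the markers and for 28.2% of all genes. In bulk samples fewer cells of a type and less RNA per cell cannot be told apart. The summed intensity of 15 endothelial markers was 10784 to 11068 in miR-34a samples, against 8227 to 12956 in vector samples, with vector 1 lowest and vector 2 highest. Of these markers 0 passed in limma, where 3 had an unadjusted p under 0.05. The brightest were Flt1 (change 0.32, and -0.16 without vector 1), Eng (0.11, and 0.10) and Cdh5 (-0.05, and -0.34). Vector 2 was the highest array for the main probe sets of Notch4 and Dll4 and also of Jag1, Notch3 and Hes1. On the second Notch4 probe set the order was the other way, with vector 1 highest and vector 2 lowest. The 12 pericyte and smooth muscle markers summed to 7546 to 10887 in miR-34a samples, against 4971 to 11060 in vector samples, and 1 of them passed, Abcc9, which fell by 0.86. The brightest of that list were Pdgfrb (0.54, and 0.11 without vector 1), Acta2 (0.95, and 0.53) and Tagln (0.49, and 0.15).

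The 11 fibroblast markers summed to 39896 to 58503 in miR-34a samples, against 15537 to 47190 in vector samples, with 2 higher (Pcolce at 0.81, Thy1 at 1.73). These 2 were 18.2% of the list, and 11.7% of all genes passed. The brightest were the collagen genes Col1a2 (change 0.92, and 0.36 without vector 1) and Col3a1 (0.54, and -0.09) and the periostin gene Postn (0.73, and 0.11). Of 12 macrophage markers, which summed to 24432 to 27710 in miR-34a samples and 17713 to 24056 in vector samples, 2 were higher (C1qb at 1.13, Fcgr1 at 0.98) and 1 lower (Mrc1 at -0.99). The brightest of these were Ctss (0.47, and 0.01 without vector 1), C1qa (0.83, and 0.49 with an adjusted p of 0.03 in limma) and Cd14 (-0.42, and -0.14). The 7 mast cell markers summed to 3345 to 5382 in miR-34a samples, against 993 to 1357 in vector samples, and 4 were higher, among them the protease genes Tpsb2 (3.53), Cma1 (2.93) and Cpa3 (2.65). Their brightest besides Tpsb2 were Mcpt4 (1.14, and 0.88 without vector 1) and Kit (0.04, and -0.08). The 7 T cell markers summed to 3634 to 3922 in miR-34a samples and 3530 to 3551 in vector samples, and 0 passed in limma, with 2 at an unadjusted p under 0.05. Zap70, Cd3e and Cd3g, the brightest, had changes of -0.02, 0.14 and 0.50, and of 0.02, 0.14 and 0.31 without vector 1. The 8 epithelial markers summed to 84414 to 89932 in miR-34a samples, against 80516 to 94580 in vector samples, with 0 past the threshold in limma and 1 at an unadjusted p under 0.05. Krt18, Krt8 and Krt19 had changes of 0.05, 0.09 and -0.23, and of 0.10, 0.14 and -0.01 without vector 1. Epcam changed by 0.42, and by -0.215 without vector 1. The 6 lung lineage markers summed to 19418 to 21782 in miR-34a samples, against 5236 to 16272 in vector samples, again with 0 past the threshold in limma and 2 at an unadjusted p under 0.05. Sftpb, Foxa2 and Sftpd, the brightest, had changes of 1.85, 0.45 and 0.09. Without vector 1 these were 0.46, 0.32 and 0.12, and the first and second passed (limma adjusted p = 0.0323 and 0.0357). The lowest deposited value on every array was 1.0, so a value above 0 does not show that a marker was detected. Sums that did not overlap between groups were those of macrophage, mast cell, T cell and lung lineage markers. Gene by gene, the groups did not overlap in 50%, 57.1%, 57.1% and 66.7% of these lists, against 34.9% of all genes. A sum rests mostly on its brightest genes, here Zap70 for the T cell list and Sftpb for the lung lineage list. The T cell sums lay close together, at 3634 or more against 3551 or less. The part of these cells in the change of Dll1 or of any other member was not tested.

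**Figure D5:**
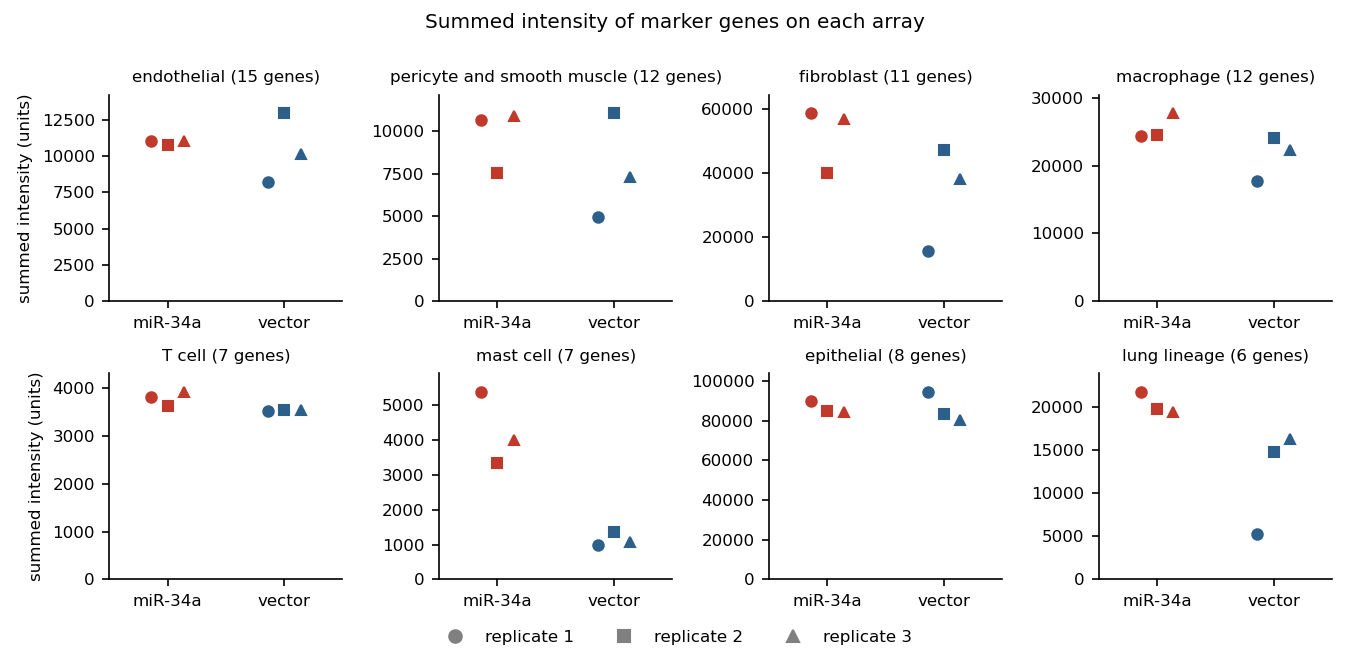
Summed intensity (in units) of the marker genes of 8 lists on each array, with miR-34a arrays in red on the left and vector arrays in blue on the right of each panel and markers for the replicate number. Vector 1 is the lowest array for every list but the epithelial one, where it is the highest, and the mast cell sums are 3345 to 5382 in miR-34a and 993 to 1357 in vector samples. Within the epithelial list vector 1 is highest for Krt7, Krt19 and Cldn4 and lowest for Epcam, Cdh1 and Esrp1.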

How the data were processed

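Total RNA of 3 miR-34a and 3 vector samples was hybridised as biotinylated cRNA to Affymetrix mouse arrays, per the labels' protocols. The authors deposited linear intensities for 22690 probe sets, with medians alike between arrays. How these intensities were summarised, background-corrected and scaled is not given in the sources used here. Symbols come from the platform annotation, brought up to date with RefSeq GRCm38.p6; 20393 probe sets had 1 symbol, 691 several and 1606 none listed, and 64 controls were left out.

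Values were taken as log2(intensity + 16), which understates changes of dim genes. Changes (miR-34a minus vector) were tested two-sided with limma 3.58.1 (lmFit, eBayes, no trend; R 4.3.3). Benjamini-Hochberg adjustment at 0.05 ran over 12393 genes, brightest probe set each, or over 20380 probe sets where stated. Arrays have no read depth, and 3 per group limit the precision. Groups and replicate numbers came from the titles. The members and lists were chosen with earlier results of these data known. The text names all members, pathway genes past the threshold and 10 set pathway genes, the 3 brightest and up to 3 called genes of each marker list, and the nearest patterns of the members (3 for 4 of them, 1 for the others).

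The test was tested on simulated data. Alternatives were other scalings (quantile, median), a filter on low values, pseudocounts of 1 and 64, averaging the probe sets of a gene, a robust trend, weights for arrays, the replicate block, and each array left out. Plots were made in Python 3.11.15 with matplotlib 3.10.9.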

Additional observations from a re-analysis of the deposited data

How the results depend on the processing

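Of 148 values of the 10 Notch genes under other settings, 135 kept direction and side of the threshold. Dll1 was lower in all 14 settings that tested it and passed in 12. Where genes of low mean level were left out, Dll1 and Notch4 were not tested, and 0 Notch genes and 4 pathway genes passed. In that setting 1524 of 8262 genes passed in all. Array weights gave 2 Notch genes (Dll1 and Jag1), 10 pathway genes and 3238 genes in all. The mean of all probe sets gave 4 pathway genes and 1476 of 12393 genes in all. Signs turned, all without a call, for Notch3 (0.003) and Notch4 (0.05) with the mean of all probe sets, Hey1 with quantile normalization (-0.022) and median centring (-0.012), Notch4 (0.165) and Hes1 (0.057) without vector 2, Jag2 (0.043) without vector 1, and Hey1 without miR-34a 3 (-0.081) or vector 3 (-0.032). The cause was not tested. With 1 array left out, Notch4 ran from -0.243 to 0.165, Jag2 from -0.143 to 0.043, Hes1 from -0.122 to 0.057 and Hey1 from -0.081 to 0.085. With 1 array left out, 0 to 2 Notch genes, 0 to 7 pathway genes, 226 to 2133 genes and 667 to 3663 probe sets passed; 1456 genes and 2782 probe sets passed with all arrays. The gene count was 255 when miR-34a 1 was dropped, 667 for miR-34a 2, 226 for miR-34a 3 and 631 for vector 3. Deviations of same-numbered arrays from their group means correlated at -0.168, -0.094 and -0.081. With 3 arrays per group these values cannot settle whether the samples were paired. The replicate block left 522 genes, 1550 probe sets, 1 Notch gene (Dll1) and 1 pathway gene (Hdac2).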
